A study of Mus musculus with 5 samples.

Results

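The type I interferon receptor and the JAK-STAT chain behind it were examined through 10 genes: both receptor chains (Ifnar1, Ifnar2), 3 Janus kinases (Jak1, Tyk2, Jak2), 2 STAT factors (Stat2, Stat3), the inhibitor Socs3 and the phosphatase genes Ptpn6 and Ptpn11. They were chosen by name, as the probe sets annotated to exactly 1 of these symbols, and all 10 of 10 had a probe set, out of 17756 genes on the arrays with a symbol. Each was read by 1 probe set. The data were 5 Affymetrix arrays of VE+CD45+ cells (VE is read here as VE-cadherin) from C57Bl/6 mouse embryos at stage E11.5. They were sorted from the AGM (aorta-gonad-mesonephros), where blood stem cells first arise. The cells had been cultured with serum and given interferon-alpha (IFNa, 0.5 ng/ml, replicates 1, 2 and 3) or vehicle (replicates 2 and 3) for 4 h. No genotype other than the strain is given for either group. The titles, source names and treatment tags separate IFNa from vehicle, while the treatment protocol text is the same on all 5 samples and names IFNa. The labels call the replicates biological without saying from how many embryos or cultures each came, so the p-values measure the spread between these 5 arrays.

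Interferon-alpha binds a receptor made of IFNAR1 and IFNAR2. The kinases TYK2 and JAK1, which sit on the receptor's inner tails, then phosphorylate STAT proteins. STAT2 joins IRF9 in the factor ISGF3, which binds interferon-stimulated response elements (ISREs) in target genes. The same receptor can also engage STAT3, and SOCS3 and the SH2-domain phosphatases SHP-1 and SHP-2 restrain or tune JAK-STAT signals in blood cells. All of these proteins are switched mainly by phosphorylation, which RNA signals do not show. The data bear on whether the transcripts of the chain were there to carry a signal and whether their level differed with treatment.

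The values are log2 RMA probe set signals. Because a probe set's brightness depends on its own probes, the genes were not ranked against each other. As a measure of background, each gene's signal was set beside that of 37 olfactory receptor genes, which encode odour sensors of the nose. The 95th percentile of these lay between 4.49 and 4.99 on the 5 arrays. By this measure 9 of the 10 genes were above background on every array, and each of the 9 also exceeded the brightest olfactory receptor row on every array. Of all 17756 genes, 49.1% were above the 95th percentile on every array. Ifnar2 stood between the 96.7 and the 98.2 percentile of all genes of its array, and Ifnar1 between the 83.4 and the 90.4 percentile. Stat2 stood between the 67.3 and the 76.4 percentile. The exception was Stat3, a factor that many cytokines use, whose probe set read 3.59 to 5.91. It was below the olfactory 95th percentile on 1 array (IFNa replicate 2) and below the brightest olfactory receptor row on each of the 5 arrays. Its probe set therefore gave little signal above background, and no statement on the amount of Stat3 RNA can be drawn from it.

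**Figure D1:**
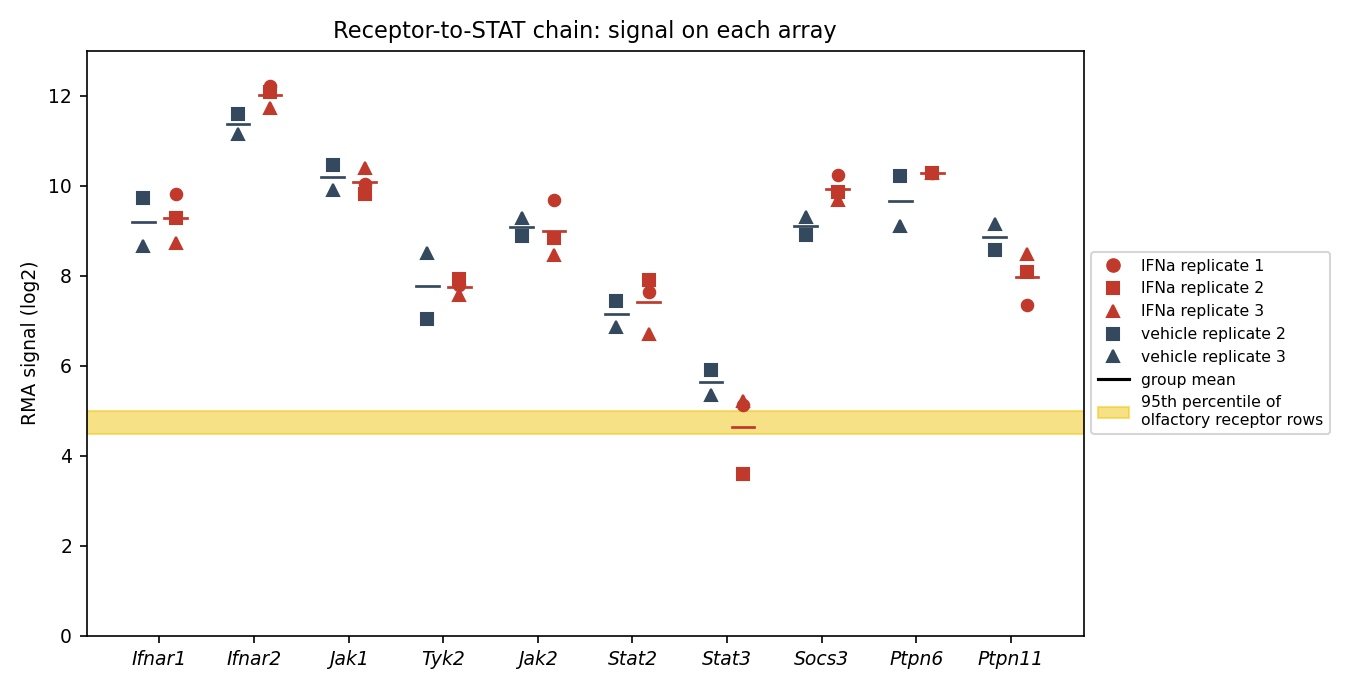
RMA signal (log2, vertical axis) of the 10 genes on each array, with vehicle in dark blue and IFNa in red, symbols for replicates and short lines for group means. The yellow band spans the olfactory receptor 95th percentiles of the 5 arrays (4.49 to 4.99). Every gene but Stat3 lies above the band on all 5 arrays.

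The RefSeq promoter windows of the 10 genes (GRCm38.p6, 250 bases before to 50 after the start) were searched on both strands for the ISRE core, which is GAAA followed by any 2 bases and a further GAAA, and for the GAS core TTCNNNGAA, the palindrome that STAT dimers bind. All 10 genes matched a window. The ISRE core was present in 1 of 10, that of Stat2, against 3.44% of all 32851 promoter windows and 11 of 18 windows of ISGF3 target genes. The GAS core was present in 3 of 10, those of Ifnar1, Ifnar2 and Socs3. It was in 8.30% of all windows and in 4 of 18 windows of ISGF3 target genes. The match in Ifnar1, TTCACGGAA, lies across the start itself. The 250 bases before the start are shown for the other 3 genes with a match, because they are the genes whose own promoters hold the letters that the chain's end products recognise, with the match in capitals. The ISRE core in Stat2 reads as its reverse complement on the strand shown. The 2 motifs did not overlap in any of these windows, and a match describes letters and not a bound site.
Stat2 (GRCm38.p6, chr10:128270248-128270497, plus strand): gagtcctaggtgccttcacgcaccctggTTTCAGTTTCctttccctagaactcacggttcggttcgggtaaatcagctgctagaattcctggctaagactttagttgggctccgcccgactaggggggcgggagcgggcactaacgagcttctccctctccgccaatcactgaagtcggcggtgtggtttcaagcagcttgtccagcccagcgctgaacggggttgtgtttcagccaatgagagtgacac
Ifnar2 (GRCm38.p6, chr16:91372533-91372782, plus strand): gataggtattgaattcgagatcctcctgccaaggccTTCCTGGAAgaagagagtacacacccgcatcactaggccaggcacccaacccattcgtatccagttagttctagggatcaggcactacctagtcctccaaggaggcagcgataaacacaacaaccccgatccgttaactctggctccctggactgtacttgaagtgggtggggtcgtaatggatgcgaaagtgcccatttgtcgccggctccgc
Socs3 (GRCm38.p6, chr11:117969367-117969616, minus strand): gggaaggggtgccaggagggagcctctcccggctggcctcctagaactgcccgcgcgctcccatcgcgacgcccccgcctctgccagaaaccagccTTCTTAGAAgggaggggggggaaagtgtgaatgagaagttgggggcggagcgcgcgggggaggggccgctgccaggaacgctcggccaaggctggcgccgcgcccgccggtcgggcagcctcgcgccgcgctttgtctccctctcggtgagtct

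Counting the start base as 0, the Stat2 match spans positions -222 to -213, the Ifnar2 match -214 to -206 and the Socs3 match -154 to -146. None of the 4 genes with a match passed the test of IFNa against vehicle. Ifnar2 and Socs3, with a GAS core, were higher on every IFNa array, while Ifnar1, also with a GAS core, and Stat2 overlapped between the groups. Ptpn6, with neither core, was also higher on every IFNa array. Of all genes, 25.6% had no overlap between the groups in one or the other direction. A link between these cores and the levels was not tested.

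None of the 10 genes differed between IFNa and vehicle by the test used. In limma, fitted over all 17756 genes with Benjamini-Hochberg adjustment, 0 of 10 passed an adjusted p of 0.05, where 0.135% of all genes did (0.0169% higher and 0.118% lower with IFNa). At an unadjusted p under 0.05 stood 0 of 10, against 10.0% of all genes. The differences ran from -0.98 (Stat3) to 0.82 (Socs3) on the log2 scale with a median of 0.03, beside a median of -0.04 over all genes, and 5 of 10 were above 0. In 5 of 10 genes the IFNa arrays all lay above or all lay below the vehicle arrays, where 25.6% of all genes showed this. Among these 5, Ifnar2, Socs3 and Ptpn6 were higher with IFNa and Stat3 and Ptpn11 lower. The 95% intervals were wide. A 2-fold rise was outside the interval for 3 of 10 genes (Jak1, Ptpn11 and Stat3), against 55.9% of all genes. For Stat3 this bounds only a probe set near background and not its RNA, which leaves 2 genes. Further, for 0 of 10 genes did the interval exclude a 2-fold difference in both directions, against 26.2% of all genes. Changes of 2-fold in at least 1 direction were thus not excluded for any gene of the chain by these intervals.

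**Figure D2:**
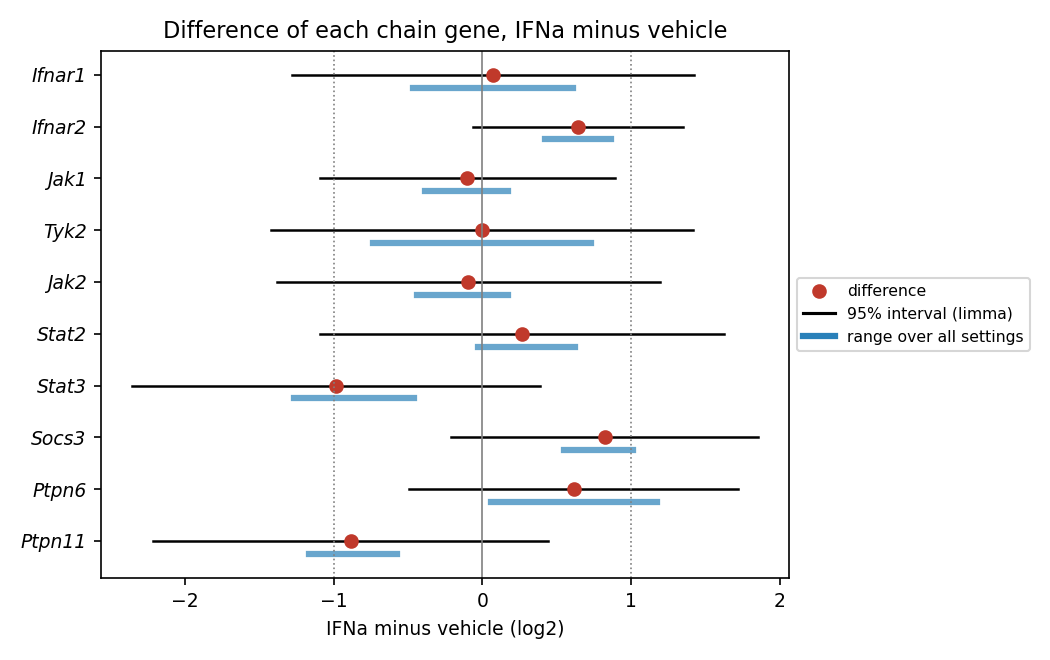
Difference between IFNa and vehicle (horizontal axis, log2) for the 10 genes. Red points are the differences, black lines their 95% intervals from limma and blue bars the range of the difference over the main and all alternative settings; dotted lines mark a 2-fold difference. Every black line crosses 0.

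Both chains of the receptor were read well above background. Ifnar1, the chain that TYK2 binds, read 9.81, 9.28 and 8.73 on the 3 IFNa arrays and 9.74 and 8.67 on the 2 vehicle arrays. The groups covered the same range, with 1 vehicle array near the top and the other at the bottom. The difference was 0.07 ± 0.57 (SE) with a 95% interval of -1.28 to 1.42 (adjusted p = 0.986, limma). Its sign rested on single arrays, at 0.61 without vehicle replicate 2, -0.46 without vehicle replicate 3 and -0.20 without IFNa replicate 1.

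Ifnar2, the chain that binds JAK1 and docks STAT2, read 12.21, 12.09 and 11.74 with IFNa and 11.59 and 11.15 with vehicle. All IFNa arrays were above both vehicle arrays, by 0.15 at the nearest. The means were 12.01 ± 0.25 (SD, n = 3) and 11.37 ± 0.31 (SD, n = 2), a difference of 0.64 ± 0.30 (SE, 1.56-fold) that did not pass (unadjusted p = 0.0688, adjusted p = 0.545, limma). Its 95% interval, -0.07 to 1.35, was the one that came nearest to leaving out 0. The difference ranged from 0.42 to 0.86 over the 13 alternatives. The row, floor, filter and variance settings among them left it unchanged. With no overlap between the groups, leaving out a single array could not turn its sign. The probe set is of the kind that can read several transcripts of a gene, so the membrane-bound and soluble forms of this receptor chain were not told apart.

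The receptor-bound kinases Jak1 and Tyk2 had differences of means near 0, with intervals that did not exclude a 2-fold fall. Jak1 read 10.04, 9.82 and 10.40 with IFNa and 10.46 and 9.91 with vehicle. These arrays overlapped fully, the difference was -0.10 ± 0.42 (SE), and the interval of -1.09 to 0.89 left out a 2-fold rise (adjusted p = 0.975, limma). Jak1 turned to 0.17 without vehicle replicate 2 and to 0.033 without IFNa replicate 2.

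Tyk2 read 7.79, 7.92 and 7.56 with IFNa, a spread of 0.18 (SD, n = 3), while the vehicle arrays stood apart at 7.03 and 8.49. The IFNa arrays lay between the vehicle arrays, and the difference of means was -0.0033 ± 0.59 (SE), with an interval of -1.42 to 1.41 (adjusted p = 0.9997, limma). Because the vehicle arrays differed by 1.46, it read -0.74 with vehicle replicate 2 left out and 0.73 with vehicle replicate 3 left out, and 0.094 without IFNa replicate 3.

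Jak2, which serves the interferon-gamma and many growth factor receptors rather than the type I receptor, read 9.68, 8.84 and 8.45 with IFNa and 8.89 and 9.28 with vehicle. Both vehicle arrays fell inside the IFNa range. The difference was -0.09 ± 0.54 (SE; interval -1.38 to 1.19; adjusted p = 0.981, limma), and it was 0.17 without IFNa replicate 3 and 0.099 without vehicle replicate 3.

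Stat2, the STAT that carries the activation domain of ISGF3 and is itself an interferon-induced gene, read 7.64, 7.91 and 6.71 with IFNa and 7.45 and 6.86 with vehicle. The lowest of the 5 values and the highest were both IFNa arrays. The means were 7.42 ± 0.63 (SD, n = 3) and 7.15 ± 0.42 (SD, n = 2), and the difference of 0.27 ± 0.57 (SE; interval -1.09 to 1.63) did not pass (adjusted p = 0.947, limma). It was -0.028 without vehicle replicate 3 and 0.62 without IFNa replicate 3.

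Stat3 read 5.14, 3.59 and 5.21 with IFNa and 5.91 and 5.35 with vehicle, so the IFNa arrays were all lower, the nearest by 0.14. The difference was -0.98 ± 0.57 (SE; adjusted p = 0.658, limma). All of these signals lie in the range that the olfactory receptor rows also reached, and IFNa replicate 2 had 8 of the 37 olfactory receptor rows above it. Without that array the difference was -0.46.

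Socs3, which encodes a feedback inhibitor that binds JAKs and cytokine receptors and is switched on by STAT3, read 10.24, 9.86 and 9.69 with IFNa and 8.91 and 9.30 with vehicle. The IFNa arrays were all above the vehicle arrays, by 0.40 at the nearest. The means were 9.93 ± 0.28 (SD, n = 3) and 9.11 ± 0.27 (SD, n = 2), a difference of 0.82 ± 0.43 (SE, 1.77-fold; interval -0.21 to 1.85). This was the highest difference of the 10 genes and did not pass (unadjusted p = 0.10, adjusted p = 0.610, limma). It lay between 0.55 and 1.01 over the 13 alternatives, of which the row, floor, filter and variance settings left it unchanged. Leaving out a single array could not turn its sign, because the groups do not overlap. The Socs3 probe set is of a kind with probes that can match other transcripts.

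The phosphatase genes went different ways, and neither passed. Ptpn6, which encodes SHP-1, the phosphatase of blood cells, read 10.28, 10.28 and 10.27 on the IFNa arrays, an SD of 0.0046 (n = 3). Vehicle replicate 2 was close to these at 10.22, and vehicle replicate 3 stood at 9.10. The difference of 0.62 ± 0.46 (SE; interval -0.49 to 1.72; adjusted p = 0.752, limma) therefore came from 1 array, and it shrank to 0.056 without vehicle replicate 3 and was 1.18 without vehicle replicate 2.

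Ptpn11, which encodes the widely expressed phosphatase SHP-2, read 7.35, 8.09 and 8.49 with IFNa and 8.58 and 9.14 with vehicle. All IFNa arrays were lower, the nearest by 0.094. The means were 7.98 ± 0.58 (SD, n = 3) and 8.86 ± 0.40 (SD, n = 2), and the difference of -0.89 ± 0.56 (SE; interval -2.21 to 0.44) did not pass (unadjusted p = 0.157, adjusted p = 0.689, limma). Over the 13 alternatives it lay between -1.17 and -0.57, unchanged by the row, floor, filter and variance settings. Here too the lack of overlap means that no left-out array could turn its sign.

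Single arrays shaped several of these values. IFNa replicate 1 was the highest array for 5 of the 10 genes (Ifnar1, Ifnar2, Jak2, Socs3 and Ptpn6), and vehicle replicate 3 the lowest for 3 (Ifnar1, Ifnar2 and Ptpn6). Each gene's deviation from its own mean had a median over the 10 genes of 0.29 on IFNa replicate 1 and -0.26 on vehicle replicate 3, where the median over all genes was -0.12 and 0.08. The markers of the sort varied between arrays, and neither passed. Ptprc, the gene of CD45, read 5.35 to 7.03 with IFNa and 7.23 to 8.95 with vehicle. Cdh5, the gene of VE-cadherin, read 6.23 to 8.55 and 6.93 to 9.20. Both were above the olfactory 95th percentile on every array. On IFNa replicate 3, however, Ptprc at 5.35 was below the brightest olfactory receptor row (5.95). Ptprc differed by -2.02 ± 0.75 (SE; adjusted p = 0.441, limma), and by -1.16 without vehicle replicate 3. Cdh5 overlapped between the groups at -0.95 ± 0.96 (SE; adjusted p = 0.839, limma), and was 0.18 without vehicle replicate 2. Of 7 blood stem and progenitor markers 6 were above the olfactory 95th percentile on every array, with Kit the exception, and of 6 endothelial markers 3 were. All 9 of 9 macrophage markers were, with an array mean of 11.59 to 11.94 with IFNa and 11.76 to 11.99 with vehicle, and Csf1r, a receptor of macrophages, read 14.26 to 14.69 over all arrays. Erythroid markers averaged 4.84 to 5.76 and 5.34 to 6.28, and mesenchymal markers 4.83 to 6.56 and 5.26 to 5.95 (IFNa and vehicle array means in that order). Above the olfactory 95th percentile on every array were 2 of 5 erythroid and 3 of 6 mesenchymal markers. Single markers had no overlap between the groups without passing in limma: Cd34, a surface protein of progenitors and endothelium, was lower on every IFNa array (-2.61 ± 0.63, SE; adjusted p = 0.268), as were the smooth muscle genes Tagln (-1.73 ± 0.50, SE; adjusted p = 0.341) and Acta2 (-2.04 ± 0.81, SE; adjusted p = 0.473). Acta2 was -1.22 without IFNa replicate 2. Of the 6 mesenchymal markers, however, 4 were above 0, with a list median of 1.13. Pdgfra of that list was higher on every IFNa array (0.88 ± 0.47, SE; adjusted p = 0.618, limma). Its signal was above the olfactory 95th percentile on 1 of 5 arrays only. Tek, an endothelial receptor, was higher on every IFNa array (2.15 ± 0.72, SE; adjusted p = 0.394, limma), and by 1.08 without vehicle replicate 3. Of the endothelial markers 2 of 6 were above 0 (list median -0.25), and of the stem and progenitor markers 4 of 7 (list median 0.16). The groups did not overlap for 1 of 6 endothelial, 1 of 7 stem and progenitor and 3 of 6 mesenchymal markers. Over all genes 25.6% showed this. The part of such cells in the values of the chain was not tested, and in a mixed sample more cells of a type and more RNA per cell cannot be told apart.

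Around the chain, other genes of the pathway were described by lists, and none of their 81 measured genes passed the test. The other Janus kinase, 4 more STAT genes and Irf9 had higher means with IFNa in 6 of 6 measured genes. Over all genes 8160 of 17756 were above 0. Above the olfactory 95th percentile on every array were 5 of the 6, where 49.1% of all genes were. The list's median difference was 1.61 beside -0.04 over all genes. In 4 of its 6 genes the groups did not overlap, where 25.6% of all genes showed this. By limma 0 of the 6 passed, and 3, all higher with IFNa, were at an unadjusted p under 0.05, against 10.0% of all genes. The median of the list lay between 1.35 and 2.01 over the alternatives.

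Stat5b, which relays growth hormone and blood growth factor signals, read 8.01, 8.81 and 9.20 with IFNa and 5.98 and 5.86 with vehicle. The groups were far apart, and the difference was 2.75 ± 0.55 (SE, 6.75-fold; adjusted p = 0.193, limma). Both vehicle signals were close to the brightest olfactory receptor row of their arrays (5.99 and 5.83), so the fold is uncertain. Stat6, the STAT of interleukin-4, read 11.45 to 12.49 on the 3 IFNa arrays and 9.89 and 10.22 on the vehicle arrays, a difference of 1.76 ± 0.42 (SE; adjusted p = 0.263, limma). Stat4, the STAT of interleukin-12, read 7.22, 9.17 and 6.71 against 4.89 and 5.27, with both vehicle arrays near the background level, and the difference was 2.62 ± 0.78 (SE; adjusted p = 0.358, limma). Jak3, the kinase of the common gamma chain receptors, was also higher on every IFNa array, at 5.35 to 6.34 against 4.77 and 4.88. Its signal was above the olfactory 95th percentile on 4 of 5 arrays, so the size of its difference is uncertain. None of these 4 turned sign over the 13 alternatives, which is no added support. Where groups do not overlap, leaving out an array cannot turn the sign, and the row, floor, filter and variance settings left these differences unchanged.

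The remaining 2 genes of the list rested on 1 array. Stat5a read 9.43, 9.69 and 8.77 with IFNa and 9.37 and 6.28 with vehicle, so its difference of 1.47 ± 0.92 (SE) was -0.068 without vehicle replicate 3 (adjusted p = 0.688 with all arrays, limma). Irf9, the DNA-binding partner of STAT2 in ISGF3, read 7.87, 6.73 and 8.05 with IFNa and 7.65 and 6.37 with vehicle. These overlapped, and the difference of 0.54 ± 0.66 (SE; adjusted p = 0.878, limma) was -0.098 without vehicle replicate 3.

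**Figure D3:**
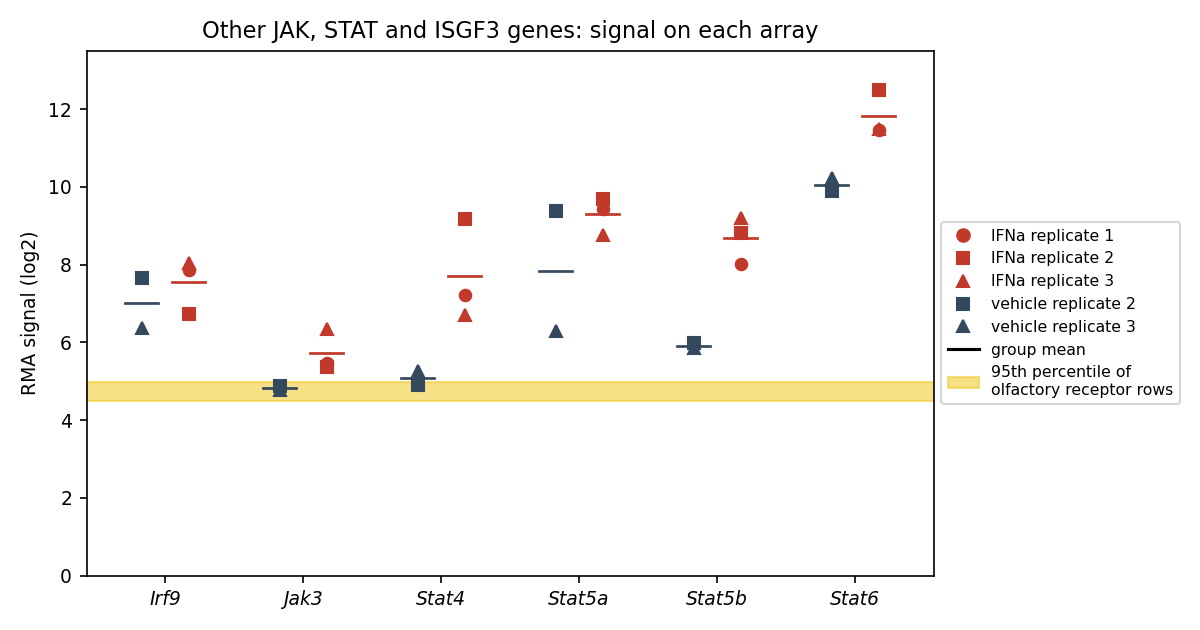
RMA signal (log2, vertical axis) of Irf9, Jak3, Stat4, Stat5a, Stat5b and Stat6 on each array, with vehicle in dark blue, IFNa in red and short lines for group means; the yellow band is the olfactory receptor 95th percentile. The groups do not overlap for Jak3, Stat4, Stat5b and Stat6, and vehicle replicate 3 stands alone for Stat5a. Over all genes 25.6% do not overlap.

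Of 14 other cytokine receptor genes, 11 were above the olfactory 95th percentile on every array, 0 passed in limma and the median difference was 0.37, which was 0.12 with quantile normalization and 0.62 without IFNa replicate 2. At an unadjusted p under 0.05 were 2 of the 14, near the 10.0% of all genes. Csf2rb, the beta chain shared by the GM-CSF receptor and others, read 10.39, 10.45 and 10.79 with IFNa and 9.62 and 7.98 with vehicle (1.74 ± 0.57, SE; adjusted p = 0.384, limma), and Csf2ra, the GM-CSF receptor alpha chain, read 9.86, 7.92 and 10.63 against 6.97 and 7.02 (2.47 ± 0.83, SE; adjusted p = 0.396, limma). The difference of Csf2rb was 0.92 without vehicle replicate 3. Ifngr1, a chain of the interferon-gamma receptor, read 6.41 to 8.14 with IFNa and 7.91 to 8.83 with vehicle. Ifnlr1, the chain specific to type III interferon, read 2.21 to 3.03 over all 5 arrays and was below the olfactory 95th percentile on each. As for Stat3, no statement on the amount of its RNA can be drawn from this probe set.

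Of 16 other negative regulators, 7 were above the olfactory 95th percentile on every array, 0 passed in limma, with a median difference of -0.02. At an unadjusted p under 0.05, 1 was higher and 2 were lower, or 3 of 16 genes where 10.0% of all genes stood. Socs2, a feedback inhibitor of STAT5 signalling, read 5.88, 5.47 and 5.79 with IFNa and 3.75 and 3.49 with vehicle, where the vehicle signals lay at background and leave the size of the difference uncertain. Its difference of 2.09 ± 0.33 (SE) had the smallest p of all genes in these lists (adjusted p = 0.126, limma). Cish, another STAT5 feedback gene, read 5.81 to 6.22 against 4.39 and 5.47, the lower of which was at background. Pias2, a SUMO ligase of the PIAS family, was lower on every IFNa array, at 2.64 to 4.45 against 5.45 and 6.72 (-2.65 ± 0.63, SE; adjusted p = 0.260, limma). Its 3 IFNa signals were below the olfactory 95th percentile of their arrays, so the size of this difference is uncertain. Socs5 was also lower, at 3.92 to 5.55 against 6.29 and 7.37, and was above that level on 3 of 5 arrays. Usp18, the interferon-induced inhibitor that binds IFNAR2, read 6.48 to 7.46 with IFNa and 6.88 and 7.17 with vehicle, a difference of 0.05 ± 0.52 (SE).

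In the list of receptor turnover, nuclear import and coactivators, 0 of 12 genes passed in limma, with a median difference of -0.07. At an unadjusted p under 0.05 were 3 of the 12, 1 higher and 2 lower, beside 10.0% of all genes. Csnk1a1, a casein kinase that primes IFNAR1 for degradation, read 7.27, 6.52 and 5.37 with IFNa and 4.48 and 4.23 with vehicle, or 2.03 ± 0.60 (SE; adjusted p = 0.351, limma). Both vehicle signals were below the olfactory 95th percentile, so this size is uncertain too, and the mean of all of its probe sets gave 1.11. Kpnb1, importin beta, which carries cargo into the nucleus, read 7.87, 6.07 and 6.98 with IFNa and 9.26 and 10.15 with vehicle, a difference of -2.74 ± 0.68 (SE; adjusted p = 0.280, limma).

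Downstream of the chain, target genes of both arms gave medians close to 0. Of 19 ISGF3 target genes, 17 were above the olfactory 95th percentile on every array. In limma 0 passed and 0 were at an unadjusted p under 0.05. Their median difference was 0.05. The array means of this list were 7.60 to 7.96 with IFNa and 7.79 to 7.81 with vehicle. Of these, the higher gene with the smallest p was the antiviral GTPase gene Mx2 (0.47 ± 0.44, SE), which was -0.069 without vehicle replicate 3, and the lower one was the RNA sensor gene Dhx58 (-1.08 ± 0.90, SE). Dhx58 was -1.80 without vehicle replicate 2, -0.37 without vehicle replicate 3 and -0.29 without IFNa replicate 3. The 14 STAT3 target genes held 0 that passed in limma and 0 at an unadjusted p under 0.05, with a median of -0.12. Bcl2l1, which encodes the survival protein BCL-XL, differed by 1.25 ± 0.62 (SE) and the kinase gene Pim1 by -0.70 ± 0.30 (SE), with Pim1 above the olfactory 95th percentile on 1 of 5 arrays only, which leaves its difference uncertain. Socs3 was thus higher on every IFNa array, without passing, while 6 of the 14 other genes of the STAT3 arm were above 0. That count is near the share over all genes, of which 8160 of 17756 were above 0.

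**Figure D4:**
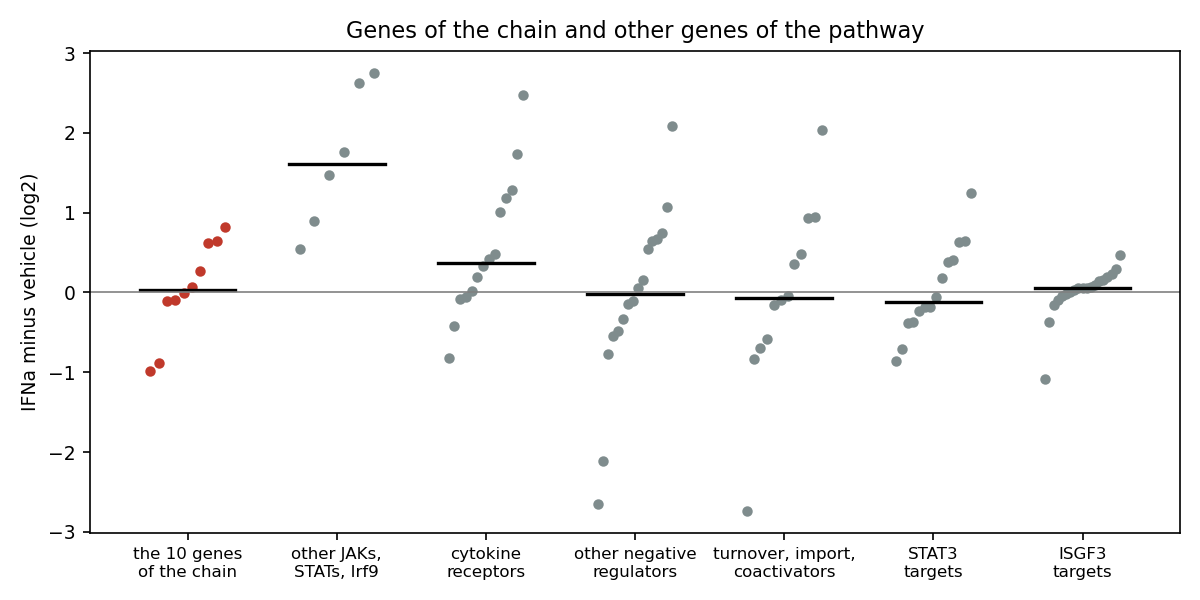
Difference between IFNa and vehicle (vertical axis, log2) for each of the 10 genes of the chain (red) and for the genes of 6 lists around it (grey), 1 point a gene in order of its value, with a black line at each list's median. The medians are 0.03 for the chain, 1.61 for the list of Jak3, 4 more STAT genes and Irf9, and between -0.12 and 0.37 for the other 5 lists.

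The array patterns of Ifnar2 and Stat2 were compared with those of all genes above the median level, by the root mean square distance between values centred on each gene's mean over the 5 arrays. The genes nearest to Ifnar2 were Zmiz1 (distance 0.0958 on the log2 scale), Nipsnap1 (0.102) and Atp11b (0.108). Nearest to Stat2 were Plek (0.0616), which encodes the platelet and leukocyte protein pleckstrin, Cars2 (0.0969) and Mospd2 (0.0985). With 5 arrays such likeness is a description only.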

How the data were processed

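The values deposited by the authors are log2 signals of the probe sets on 5 arrays. Per the submitters' processing notes, RMA produced them; no source used here states its version or settings. Detection calls were not used, and precision is limited by the number of arrays. The platform annotation gave 1 symbol to 17838 of 20881 rows, several to 244 and none here to 2799. For 81 of 17756 genes with more than 1 row, the row with the highest mean was used. IFNa (n = 3) was compared with vehicle (n = 2) in limma 3.58.1 (R 4.3.3; lmFit, eBayes with trend), two-sided, over all genes, with Benjamini-Hochberg adjustment and a threshold of 0.05. The fit was tested on 10 simulated sets. It recovered 37.9% of differences of 2 and 94.8% of differences of 4 on the log2 scale. Of its 1433 calls 106 were false, so most 4-fold differences were missed and calls were not free of error.

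Genes and lists were chosen with earlier results of these data known. Named were all 10 genes, the gene with the smallest p in each direction of each pathway list, Cdh5, Ptprc, Csf1r and the 3 nearest patterns. Stat4, Stat5a, Stat6, Jak3, Irf9, Csf2ra, Ifngr1, Cish, Usp18, Socs5, Kit, Cd34, Tek, Tagln, Acta2 and Pdgfra were added after their values were seen. Both groups have a replicate 2 and a replicate 3. The labels do not say that these numbers pair arrays, so they were not treated as pairs. Correlations of the deviations of like-numbered arrays from their group means were 0.0024 and 0.043. IFNa replicate 1 and vehicle replicate 2, which share no number, gave 0.048. With 2 vehicle arrays, whose deviations mirror each other, such correlations cannot decide on pairing. Alternatives were other row choices, a floor, a filter, variance settings, normalizations, a replicate block and each array left out.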

Additional observations from a re-analysis of the deposited data

How the results depend on the processing

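The count of chain genes that passed in limma was 0 under all 13 alternatives; at an unadjusted p under 0.05 it was 0, or 1 without a variance trend, without IFNa replicate 3 and without vehicle replicate 2. The count above background was 9 with the olfactory 99th percentile and with the array median as the reference. The 24 genes called over the whole table became 0 with a floor at the 20th percentile (3.35), 1 among genes above the median level, which removes Stat3 from the test, and 3 without a variance trend; the cause was not tested for the floor and the trend. Omitting single arrays gave 0 to 181. With the replicate number as a fixed replicate block 0 genes of the table and 0 of the chain were called, and Ifnar1 turned to -0.20 and Usp18 to -0.13. With repeated quantile normalization Ifnar1 was -0.21, Usp18 -0.085 and the chain's median -0.20, and with median centring Tyk2 was 0.080. Leaving out each array in turn, the differences ranged from -0.46 to 0.61 for Ifnar1, from -0.38 to 0.17 for Jak1, from -0.44 to 0.17 for Jak2, from -0.74 to 0.73 for Tyk2, from -0.028 to 0.62 for Stat2, from -0.068 to 3.01 for Stat5a, from -0.098 to 1.18 for Irf9, from -0.069 to 1.02 for Mx2 from -0.13 to 0.36 for Usp18 and from -2.09 to 0.18 for Cdh5. Of 129 refitted differences of the chain, 12 changed sign. Many of the 129 could not change, because the row, floor, filter and variance settings left every chain difference they kept as it was. The replicate block gave the same chain differences as leaving out IFNa replicate 1. The share that changed sign is thus no measure of stability. A left-out vehicle array leaves 1, whose spread is taken from that of the IFNa arrays.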
